A study of Macaca mulatta with 24 samples.

Results

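Very heavy drinking (VHD) animals made up 4 of the 24 rhesus macaques whose nucleus accumbens core (NAcc) was profiled by RNA-Seq, and they were compared with the 8 alcohol-free controls. Membership was taken from the consumption category given for each animal in the sample descriptions. The other animals were 8 labelled LD, whom the study describes as low and binge drinkers combined, and 4 heavy drinkers (HD). All were unrelated adult males. Drinkers were first induced to take ethanol by schedule-induced polydipsia, in which food pellets delivered at intervals promote drinking. They then had open access to ethanol and water at operant panels for most of each day, with no imposed abstinence before tissue collection. Controls belonged to the same cohorts and worked the same panels, with water at both spouts and a maltose dextrin solution given to match calories. Mean daily ethanol intake was 3.78 g/kg in VHD 1, 3.28 g/kg in VHD 2, 3.09 g/kg in VHD 3 and 3.32 g/kg in VHD 4, against 2.74 to 3.09 g/kg in HD and 0.47 to 2.07 g/kg in LD animals. Thus the lowest VHD intake equalled the highest HD intake. VHD 1 and VHD 2 came from cohort 5 and VHD 3 and VHD 4 from cohort 7a, and only 5 of the 8 controls (Controls 1 to 3, 7 and 8) came from these cohorts. The other 3 controls came from cohort 7b. Each animal gave 1 library from a small tissue punch placed in the core to avoid the shell and white matter.

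The core of the nucleus accumbens is the part of the ventral striatum where glutamatergic input from cortex, thalamus and amygdala meets dopamine from the midbrain, and it is known for its role in reward-directed behaviour. Most of its neurons are GABAergic striatal projection neurons, which carry D1 or D2 dopamine receptors and the phosphoprotein DARPP-32 (PPP1R1B). Ribosomal proteins and the subunits of the mitochondrial respiratory chain are among the most abundant transcripts of any neural tissue: the former build the ribosome, the latter carry electrons and make ATP.

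Expression was available as TPM, a unit in which reads are divided by transcript length and each animal's values add up to the same fixed total. A value is therefore a share of the RNA measured, and the number of reads behind it is unknown. Of 17208 genes, the 9197 that averaged 10 TPM or more across all 24 animals were tested on log2(TPM + 1). Fold changes below are differences of group means on this scale, which understates the changes of weakly expressed genes. Defining striatal markers were present in every animal, but they varied widely between punches. PPP1R1B ranged from 303 to 3926 TPM in controls, and Control 6 had both the lowest PPP1R1B and the highest MBP (myelin basic protein, 1497 TPM). In bulk tissue, fewer cells of a type and less RNA per cell cannot be told apart.

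No gene passed an adjusted p of 0.05 between VHD animals and controls (0.0% of 9197, limma with Benjamini-Hochberg adjustment, n = 4 and 8), and the smallest adjusted p was 0.129. An unadjusted p under 0.05 was reached by 2739 genes (29.8%), with 338 higher (3.68%) and 2401 lower (26.1%) in VHD animals. Where a count of list members is called higher or lower below, it is at this unadjusted threshold. In the same model, unadjusted differences from controls numbered 620 genes (6.74%) for HD and 178 genes (1.94%) for LD animals, and none of either passed the adjustment (0.0% each). These 3 comparisons share the controls. The direction of the difference depended on scaling. Over all tested genes, the log2 fold change had a median of −0.22 on TPM as deposited. After TMM rescaling, in which each animal is scaled to the trimmed mean of its log ratios (M-values), this median was −0.0081 and 1880 genes (20.4%) had an unadjusted p under 0.05, 1030 of them higher (11.2%) and 850 lower (9.24%). The rescaling divides each animal by a common factor, so it raised nearly every gene's difference by a similar amount. This median, and list medians that turn positive after rescaling, follow from that shift. The value of −0.22 is therefore given as the reference for the lists below. The share of all genes that was lower was 31.7% with cohort as a covariate, 22.3% within cohorts 5 and 7a alone, 41.6% without VHD 2 and 36.8% without Control 8.

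The shift was carried unevenly by the 4 VHD animals. The median gene lay 0.52 below the control mean in VHD 4, 0.30 below it in VHD 3 and 0.11 below it in VHD 1, but 0.068 above it in VHD 2 (log2 scale). Control 8, of cohort 7a like VHD 3 and VHD 4, lay 0.26 below the control mean, the other 7 controls between 0.016 below and 0.081 above it, and the 4 HD animals between 0.018 and 0.029 above it. VHD 4 had 54.7% and VHD 3 32.3% of genes below the range of the controls, against 10.4% in VHD 1 and 2.40% in VHD 2. The 100 most abundant genes took 30.9% of all TPM in VHD 4, 27.9% in VHD 3 and 28.1% in Control 8. They took between 19.2% and 22.1% in the other controls. Several results below are given with and without VHD 3, VHD 4 and Control 8. LD 5 also had 27.7% of its TPM in the 100 most abundant genes and 27.2% of genes below the range of the controls. It was kept when these 3 were left out, and so still entered the shared estimate of the spread. Without Control 8, VHD 3 and VHD 4, which leaves 2 VHD animals of cohort 5, 251 genes (2.73%) had an unadjusted p under 0.05, 124 higher (1.35%) and 127 lower (1.38%), and none passed the adjustment.

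**Figure D1:**
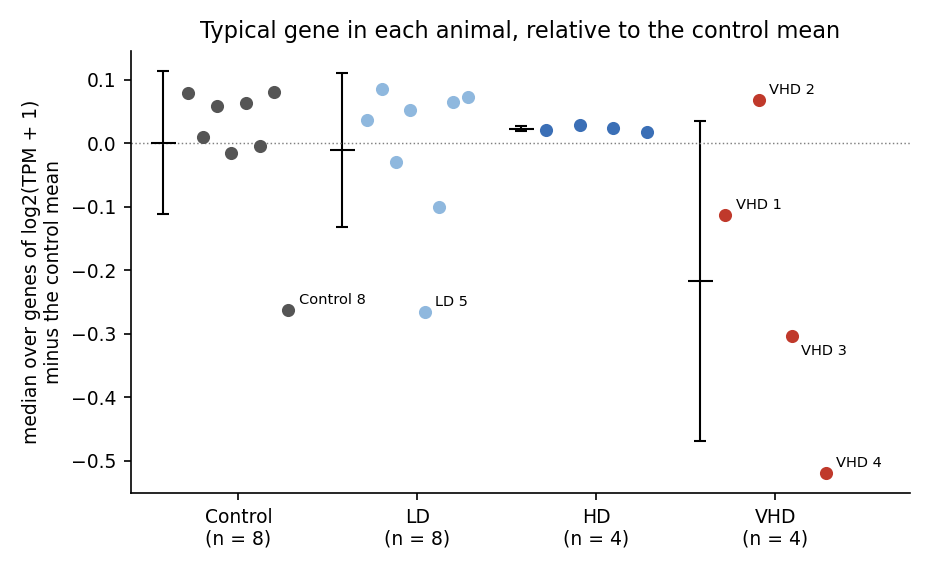
Median over 9197 genes of each animal's log2(TPM + 1) minus the control mean, by consumption group; points are animals and bars mean ± SD (n = 8, 8, 4 and 4). VHD 3 and VHD 4 lie at −0.30 and −0.52, VHD 2 lies among the controls, and Control 8 and LD 5 lie at −0.26 and −0.27.

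Single libraries also decided how many genes passed. With Control 8 left out, 1809 genes (19.7%) passed an adjusted p of 0.05 (limma), and with VHD 2 left out 2969 genes (32.3%) passed. With VHD 4 left out none passed, and unadjusted calls numbered 677 in place of 2739. With VHD 3 left out none passed either, and unadjusted calls numbered 1108. Weighting the animals by their fit (limma array weights) gave 3000 adjusted calls (32.6%), 360 higher and 2640 lower. No gene passed when VHD 1 or any of Controls 1 to 7 was left out, with cohort as a covariate, or within cohorts 5 and 7a alone.

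The direction of the unadjusted differences followed the level of expression. Among the 3865 genes with a mean of 10 to 30 TPM, 0.466% were higher and 30.7% lower in VHD animals, with a median log2 fold change of −0.28. Among the 151 genes above 1000 TPM, 43.0% were higher and 5.3% lower, with a median of 0.36. The median for these abundant genes was 0.58 after TMM rescaling and 0.19 without Control 8, VHD 3 and VHD 4. Their median in Control 8 was itself 0.41 above the control mean.

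**Figure D2:**
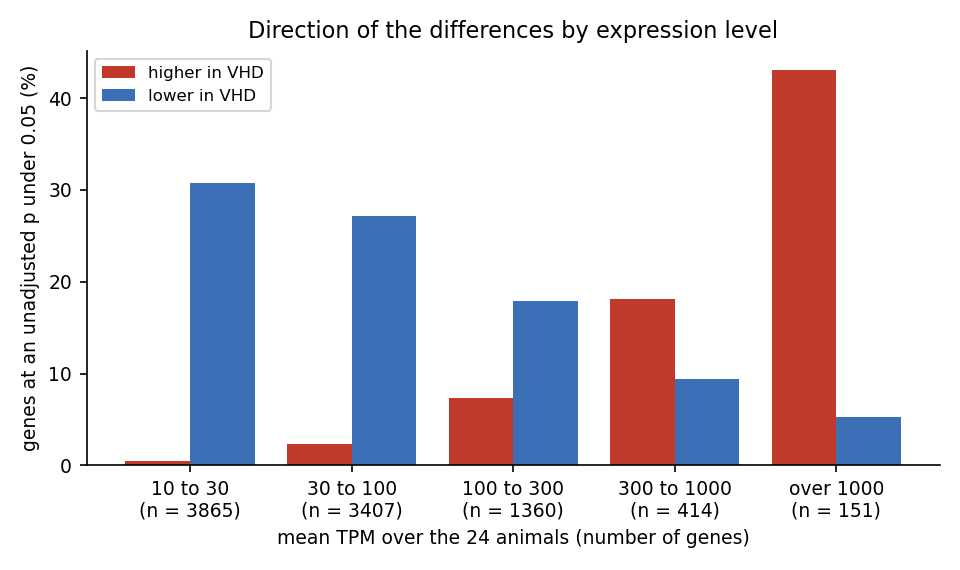
Percentage of genes at an unadjusted p under 0.05 that were higher (red) or lower (blue) in VHD animals than in controls, by mean TPM over the 24 animals, with the number of genes in each bin. The share that was higher runs from 0.466% in the weakest to 43.0% in the most abundant bin, and the share that was lower from 30.7% to 5.3%.

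The 12 higher genes with the smallest p were led by ARL6IP4, which encodes a splicing-related protein. ARL6IP4 measured 347, 268, 434 and 457 TPM in VHD 1 to VHD 4, and 210.1 to 284 TPM (median 239) in controls. VHD 2 lay within the control range and the other 3 VHD animals above it (log2 fold change 0.60, SE 0.14, limma adjusted p = 0.129). NDUFB8, an accessory subunit of respiratory complex I, measured 1090.4, 974, 1194 and 1313 TPM in the VHD animals against 730.1 to 959 TPM (median 863) in controls, so that the groups did not overlap (log2 fold change 0.44, SE 0.12). FAM71E1 (46.4, 40.1, 40.1 and 52.5 TPM against 23.4 to 39.5 TPM) and DNLZ, a partner of the mitochondrial chaperone mortalin (43.8, 44.0, 49.3 and 39.5 TPM against 25.1 to 36.3 TPM), did not overlap with controls either. NEDD8-MDP1 also lay wholly above the controls, but it is a readthrough locus that shares sequence with NEDD8 and MDP1, so its values are uncertain. SAT2, of the spermidine/spermine acetyltransferase family, measured 299, 355, 313 and 404 TPM against 174 to 321 TPM, with 2 VHD animals inside the control range. TMSB10, an actin-sequestering thymosin, had the largest log2 fold change of these 12 (0.74, SE 0.22), with 3919, 2691, 5266 and 4972 TPM against 1552 to 3582 TPM. The remaining genes of the 12 were the nucleotide hydrolase DNPH1, RPL5, the chromatin remodelling subunit SMARCD3, HINT2 and LAMTOR2, a part of the lysosomal Ragulator complex, with log2 fold changes of 0.35 to 0.70. All 12 stayed higher within each cohort and without Control 8, VHD 3 and VHD 4. After TMM rescaling they could only stay higher, because it raised nearly every gene's difference from controls.

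Among the 12 lower genes, DUSP7, a phosphatase that inactivates ERK, had the smallest p. DUSP7 measured 30.7, 32.9, 27.6 and 23.3 TPM in VHD 1 to VHD 4 and 32.6 to 55.7 TPM (median 43.5) in controls. Only VHD 2 reached into the control range (log2 fold change −0.58, SE 0.13, limma adjusted p = 0.129). INSR, the insulin receptor, measured 8.77, 11.5, 7.19 and 5.64 TPM against 8.99 to 16.8 TPM (median 14.5). VHD 2 was again the animal inside the control range (log2 fold change −0.67, SE 0.17). CHN2, which encodes the Rac GTPase-activating protein beta-chimaerin, measured 32.5, 39.2, 22.7 and 24.96 TPM against 34.2 to 69.9 TPM (log2 fold change −0.74, SE 0.20). SERINC5 (11.2, 16.8, 11.6 and 7.09 TPM) overlapped with controls (10.4 to 30.3 TPM) in 3 of 4 VHD animals. The p21-activated kinase PAK2, the phospholipid flippase ATP11A, the secretory GTPase RAB3D, the Golgi tethering subunit COG7, the actin crosslinker ACTN4, the lysosomal nuclease DNASE2, RPAP1 and FAM161B had log2 fold changes of −0.82 to −0.43. All 12 stayed lower after TMM rescaling (−0.63 to −0.22), within each cohort and without Control 8, VHD 3 and VHD 4. These 24 genes were picked for their p, so their separation describes the choice. All 24 passed the adjustment when VHD 2 was left out (adjusted p 0.013 to 0.025, limma) and when Control 8 was left out (adjusted p = 0.0369).

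**Figure D3:**
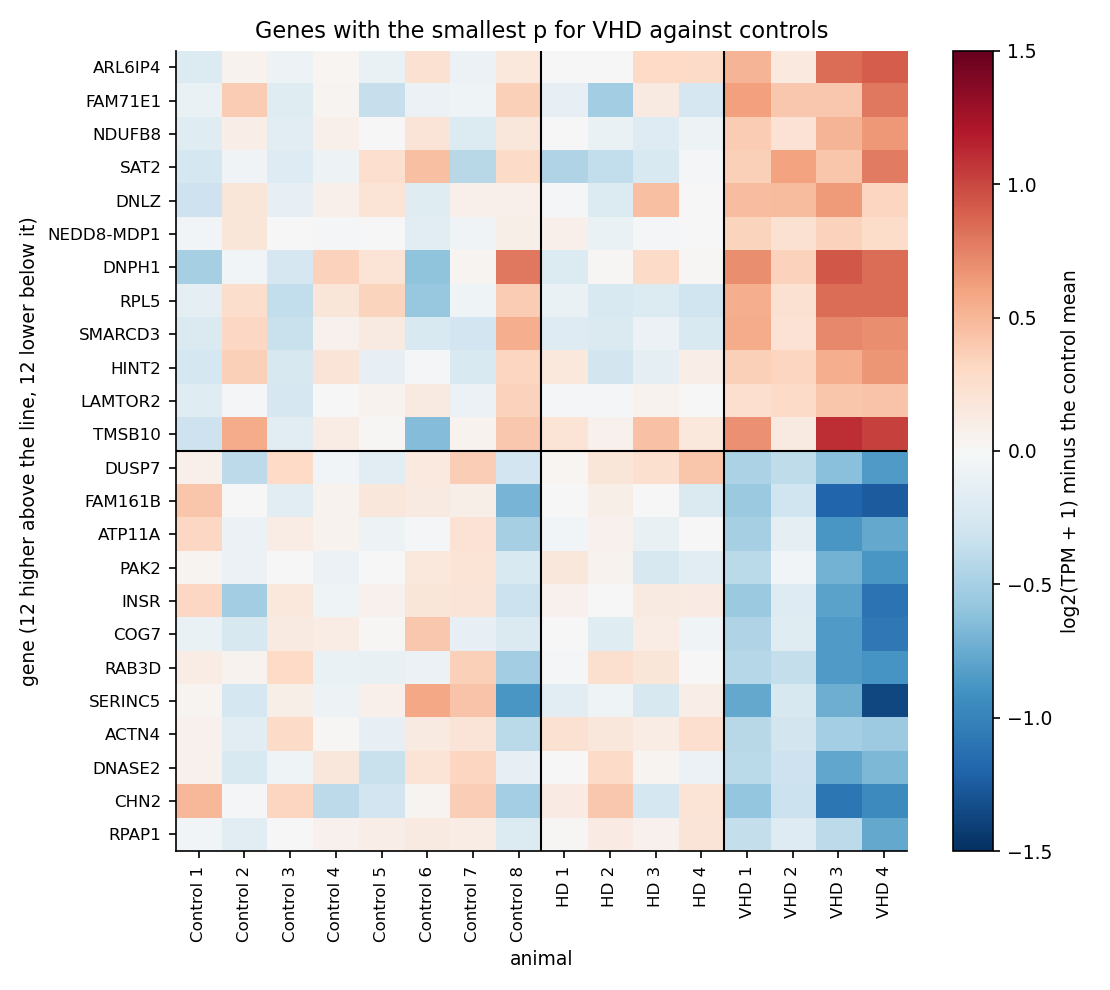
The 12 genes higher and the 12 lower in VHD animals with the smallest p, chosen from this same comparison. Colour is log2(TPM + 1) minus the control mean in each control, HD and VHD animal; VHD 2 is the palest VHD column for most genes, and Control 8 shares part of the VHD pattern.

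Genes of the cytosolic ribosome formed the most uniform list. Of 85 ribosomal protein genes, 79 passed the expression filter, 79 had a positive log2 fold change and 70 were higher at an unadjusted p under 0.05, against 3.68% of all genes. None was lower at that p. Their median log2 fold change was 0.51, or 0.73 above the median of all genes. The median of 0.73 after TMM rescaling is nearly the same quantity, since rescaling shifted nearly all genes alike. Summed over the list, ribosomal protein genes took 12.8%, 10.7%, 16.8% and 18.1% of all TPM in VHD 1 to VHD 4, and 7.62% to 15.4% (median 9.89%) in controls. VHD 1 and VHD 2 lay inside the control range, which Control 8 extended from 11.6% to 15.4%, and VHD 3 and VHD 4 lay above it. Among LD animals LD 5 reached 16.7% and LD 6 11.9%, so that LD 5 lay level with VHD 3. RPL5, a 60S protein that binds 5S rRNA, measured 1423, 1144, 1739 and 1746 TPM against 656 to 1264 TPM (log2 fold change 0.62, SE 0.17, limma adjusted p = 0.129). RPL11, its partner in the 5S particle, measured 1590.4, 1336, 2288 and 2203 TPM against 938 to 1833 TPM (log2 fold change 0.62, SE 0.18, limma adjusted p = 0.129). The large subunit (42 of 47 higher, median 0.50) and the small subunit (28 of 32 higher, median 0.53) had like medians. By cohort the list median was 0.41 in cohort 5 and 0.63 in cohort 7a. Of these genes, 63 passed the adjustment without VHD 2 and 63 without Control 8, where 286 and 220 of all 9197 genes passed as higher. Without VHD 4, 18 were higher at an unadjusted p, without VHD 3 30 were, and without Control 8, VHD 3 and VHD 4 only 2 were, with a median of 0.32.

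Respiratory chain subunits were also higher, but not as a block. Of 80 genes, 76 were tested, of which 34 were higher and 4 lower at an unadjusted p under 0.05. These were 44.7% and 5.26% of the list, against 3.68% higher and 26.1% lower of all genes. After TMM rescaling 56 were higher and 1 lower, against 11.2% and 9.24% of all genes. The median log2 fold change of the list genes was 0.29 (0.50 after TMM rescaling, 0.23 without Control 8, VHD 3 and VHD 4). Their summed share was 4.30%, 4.16%, 4.92% and 5.05% in VHD 1 to VHD 4 and 3.20% to 4.74% in controls. All 4 VHD animals exceeded every control but Control 8, the other 7 controls reaching 3.83%, but LD 5 reached 4.94% and LD 6 4.42%. NDUFB1 of complex I measured 954, 768, 1122 and 1376 TPM against 596 to 1015 TPM (log2 fold change 0.55, SE 0.16, limma adjusted p = 0.129), with VHD 1 and VHD 2 inside the control range. The largest log2 fold changes were those of COX7B and COX6A1, subunits of cytochrome c oxidase, at 0.61 and 0.58, beside a median of 0.43 for complex IV, 0.30 for complex I, 0.21 for complex III and 0.16 for ATP synthase. Complex II, the succinate dehydrogenase complex, had a median of −0.20, close to the −0.22 of all genes, with 3 of its 4 genes below 0. After TMM rescaling its median was 0.012. The 4 lower genes were NDUFS1, the largest core subunit of complex I, with a log2 fold change of −0.52, the succinate dehydrogenase flavoprotein SDHA (−0.39), the catalytic beta subunit of ATP synthase ATP5B (−0.29) and ATP5G3 (−0.24). After TMM rescaling these 4 were −0.31, −0.17, −0.069 and −0.020. Thus subunits of the same complex differed in direction. ATP5O (0.44), NDUFB4 (0.29) and NDUFB8 lay above all controls in all 4 VHD animals, where 0.109% of all genes did, and a further 0.109% lay wholly below. By cohort the list median was 0.25 in cohort 5 and 0.22 in cohort 7a. Without Control 8, VHD 3 and VHD 4, 14 genes were higher and none lower.

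**Figure D4:**
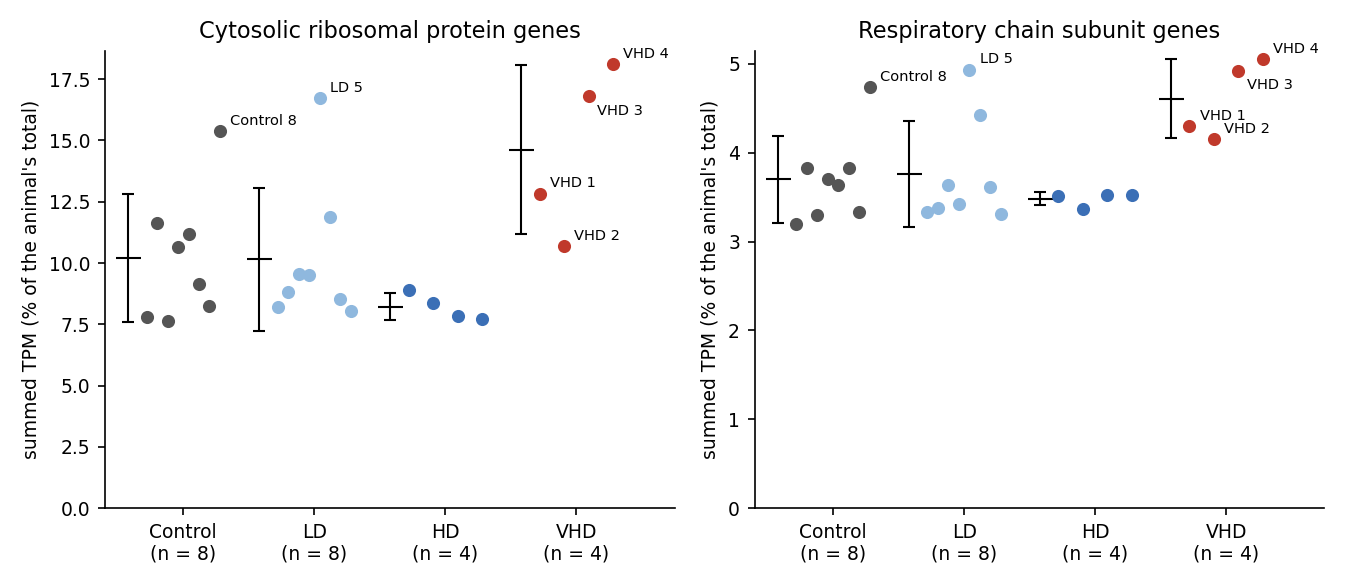
Summed TPM of the cytosolic ribosomal protein genes (left) and the respiratory chain subunit genes (right) as a percentage of each animal's total; points are animals and bars mean ± SD (n = 8, 8, 4 and 4). Ribosomal protein genes reach 16.8% and 18.1% in VHD 3 and VHD 4 beside 15.4% in Control 8, while the 4 HD animals lie between 7.71% and 8.91% and LD 5 reaches 16.7% (left) and 4.94% (right).

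The direction of the translation initiation factors depended on scaling. Of 47 translation initiation factor genes tested (55 listed), 2 were higher and 10 lower (21.3%, against 26.1% lower of all genes), with a median of −0.15. After TMM rescaling 9 were higher and 3 lower, with a median of 0.063. EIF3A, the scaffold of the eIF3 complex, measured 42.6, 51.9, 29.7 and 29.1 TPM against 43.3 to 69.7 TPM (log2 fold change −0.49, SE 0.16, limma adjusted p = 0.129), and EIF4G3, an eIF4F scaffold, had a log2 fold change of −0.66 (SE 0.22). The higher ones were EIF3K (0.28) and EIF3F (0.37). Lower ones numbered 2 without VHD 4 and 3 without VHD 3. Mitochondrial ribosomal proteins, encoded in the nucleus like the cytosolic ones, had a median of 0.093 over 72 genes (15 higher, 1 lower), with 0.16 in cohort 5 and −0.030 in cohort 7a. Of all genes, 3.68% were higher and 26.1% lower. RNA polymerase subunits (25 tested) comprised 5 higher and 6 lower genes, the lower ones being close to the 26.1% share of all genes. Their median was 0.019, and 0.23 after TMM rescaling. POLR2L, a small subunit common to the RNA polymerases, measured 209.6, 186, 290 and 311 TPM against 112 to 272 TPM (log2 fold change 0.52). Among the 6 lower genes were the catalytic subunits POLR2A (−0.55), POLR1A (−0.51) and POLR3A (−0.68), picked after their values were seen. Proteasome subunits (36 tested) comprised 3 higher and 4 lower genes, the lower ones being a smaller share than the 26.1% of all genes. PSMA7, PSMB7 and PSMB10 of the core particle were higher, and PSMD1, PSMD5, PSMD11 and PSMD12, linked to the regulatory particle, were lower. The median over all 36 was −0.039, or 0.18 after TMM rescaling, and a split by particle was not tested. The sublists for mitochondrial ribosomes, respiratory complexes, polymerases and the proteasome were drawn up after values were seen.

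Lists of synaptic genes had medians below that of all genes. Of 24 synaptic vesicle genes tested, 9 were lower (37.5%, against 26.1% of all genes) and none higher, with a median log2 fold change of −0.46, or 0.25 below the median of all genes (−0.26 after TMM rescaling). SNAP25, a SNARE protein of vesicle fusion, measured 960.2, 1116, 653 and 594 TPM in VHD animals against 647 to 1989.7 TPM (median 1379) in controls, with only VHD 4 outside the control range (log2 fold change −0.66, SE 0.26, limma adjusted p = 0.133). SYT1, the calcium sensor of release (−0.78), NSF (−0.73), SV2A (−0.70), RAB3A (−0.49) and SYN1 (−0.48) also had an unadjusted p under 0.05. The count of lower genes was 3 after TMM rescaling (12.5%, against 9.24% of all genes). With cohort as a covariate it was 15 (62.5%, against 31.7%), and within cohorts 5 and 7a 17 (70.8%, against 22.3%). It was 14 without VHD 2 (58.3%, against 41.6%) and 13 without Control 8 (54.2%, against 36.8%). In each of these settings 6 of the 24 passed the adjustment. Of all 9197 genes, 2683 passed as lower without VHD 2, a larger share, and 1589 without Control 8, a smaller share. None of the 24 had an unadjusted p under 0.05 without Control 8, VHD 3 and VHD 4, and none without VHD 4 or without VHD 3.

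GABA and glycine synapse genes had a like median of −0.46, with 4 of 22 lower (18.2%, against 26.1% of all genes). Among them were GABRA3 (31.5, 35.5, 14.8 and 18.1 TPM against 17.6 to 59.5 TPM, log2 fold change −0.72, SE 0.32), the glycine receptor subunit GLRB (−0.57) and the scaffold gephyrin, GPHN (−0.47). Ionotropic and metabotropic glutamate receptor genes had a median of −0.42, all 14 tested of 22 being below 0, as were 7119 of all 9197 genes. GRM5 (37.1, 36.2, 22.7 and 18.4 TPM against 21.2 to 101 TPM, log2 fold change −0.83, SE 0.35) and GRM3 (−0.42, SE 0.18) had an unadjusted p under 0.05 (14.3% of the list, against 26.1% lower of all genes). Of 24 potassium channel genes tested (31 listed), 5 were lower (20.8%, against 26.1% of all genes), among them KCND2, the A-type channel Kv4.2 (13.4, 19.9, 8.54 and 6.05 TPM against 8.80 to 40.2 TPM, log2 fold change −0.80, SE 0.31), and the sodium-activated channel KCNT1 (−0.49, SE 0.20). In cohorts 5 and 7a the medians of the 3 lists lay between −0.66 and −0.34. The lower genes of these lists are given in the order GABA and glycine synapses, glutamate receptors and potassium channels. They numbered 1, 0 and 1 after TMM rescaling and 11, 6 and 9 with cohort as a covariate. Each list's share in the latter setting, the lowest being 37.5%, lay above the 31.7% of all genes. Within cohorts 5 and 7a the lower genes numbered 8, 4 and 9 (36.4%, 28.6% and 37.5%, against 22.3% of all genes). They numbered 11, 6 and 8 without VHD 2 (9, 0 and 4 past the adjustment) and 10, 5 and 7 without Control 8 (5, 2 and 3). Of all 9197 genes, 2683 and 1589 passed the adjustment as lower in these settings. Without VHD 2, 41.6% of all genes were lower. The GABA and glycine share lay above this, glutamate receptors (42.9%) close to it and potassium channels (33.3%) below it. Without Control 8 the 3 shares were 45.5%, 35.7% and 29.2%, against 36.8% of all genes, so that only the first lay above. Without VHD 4 the lower genes numbered 0 for GABA and glycine synapses, 0 for glutamate receptors and 1 for potassium channels. Without VHD 3 they numbered 1, 0 and 0, and without Control 8, VHD 3 and VHD 4 all 3 counts were 0.

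Genes of the projection neurons themselves spread widely among the controls. None of the 19 tested striatal projection neuron genes had an unadjusted p under 0.05, and their median of −0.24 was 0.027 below that of all genes. This result depended on the controls used. With cohort as a covariate the median was −0.55 and no gene had an unadjusted p under 0.05, whereas within cohorts 5 and 7a alone the median was −0.64 and 6 genes were lower (31.6%, against 22.3% of all genes). By cohort the median was −0.97 in cohort 5 and −0.25 in cohort 7a, and after TMM rescaling of all animals it was −0.027. Their summed share was 0.911%, 0.505%, 0.734% and 0.862% of TPM in the VHD animals, inside the control range of 0.112% to 1.77%. PPP1R1B measured 1977, 1051, 1695 and 2589.6 TPM (control median 2266), DRD1 125, 91.2, 76.8 and 65.2 TPM (control median 129) and DRD2 216, 80.6, 140.1 and 239 TPM (control median 194). Log2 fold changes were −0.044, −0.20 and −0.099 and turned positive after TMM rescaling. Of 11 dopamine and opioid signalling genes tested, PNOC, the nociceptin precursor, was lower (9.32, 10.2, 12.5 and 8.44 TPM against 10.2 to 24.5 TPM, log2 fold change −0.63, SE 0.26, limma adjusted p = 0.137), and the list median was −0.17. This median was 0.049 after TMM rescaling, −0.38 with cohort as a covariate and −0.45 within cohorts 5 and 7a. In each of the last 2 settings 3 genes were lower (27.3%, against 31.7% and 22.3% of all genes). By cohort the median was −0.57 and −0.49. Immediate early genes, induced by neuronal activity, had a median of −0.20 with 1 of 17 lower, DUSP1 (16.6, 12.8, 11.7 and 12.5 TPM against 12.2 to 38.0 TPM). Their median was 0.0028 after TMM rescaling with none lower, −0.39 with cohort as a covariate and −0.48 within cohorts 5 and 7a. In each of these last 2 settings 3 genes were lower (17.6%, against 31.7% and 22.3% of all genes). By cohort the median was −0.47 and −0.50. EGR1 measured 49.0, 30.6, 23.99 and 37.8 TPM against 17.5 to 123 TPM (log2 fold change −0.48, SE 0.45).

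On TPM as deposited, stress-related lists held a larger share of lower genes than the 26.1% of all genes. Of 22 heat shock and ER stress genes tested, 11 were lower, with a median of −0.34, or 0.13 below that of all genes. HSPD1, the mitochondrial chaperonin, measured 157, 183, 128 and 110.2 TPM against 170.5 to 208 TPM, and only VHD 2 lay inside the control range (log2 fold change −0.40, SE 0.12, limma adjusted p = 0.129). PDIA4, an ER disulfide isomerase, measured 17.6, 33.1, 18.4 and 19.6 TPM against 24.6 to 52.6 TPM, again with VHD 2 inside the range (log2 fold change −0.59, SE 0.17). The ER chaperones HSPA5 (−0.64), HSP90B1 (−0.47) and calreticulin, CALR (−0.45), were lower too. Of 11 glucocorticoid and stress hormone genes tested (16 listed), 7 were lower (63.6%) and none higher, with a median of −0.44. NR3C1, the glucocorticoid receptor, measured 17.3, 24.1, 15.5 and 11.9 TPM against 19.4 to 32.4 TPM (log2 fold change −0.56, SE 0.16, limma adjusted p = 0.129). VHD 2 lay within the control range and the other 3 VHD animals below it. SGK1, a glucocorticoid-induced kinase (57.1, 63.6, 53.0 and 26.5 TPM against 46.7 to 96.8 TPM, log2 fold change −0.55, SE 0.20), KLF9 (−0.60) and the mineralocorticoid receptor NR3C2 (−0.44) were lower as well. After TMM rescaling 5 heat shock genes were lower (22.7%, against 9.24% of all genes), but 1 glucocorticoid gene was lower (9.09%) and 1 higher, so that the larger share held for the heat shock list only. Without Control 8, VHD 3 and VHD 4, 1 heat shock gene and no glucocorticoid gene had an unadjusted p under 0.05. Without VHD 4 these counts were 3 and 1, and without VHD 3 they were 3 and 3. Of all genes, 1.38%, 5.02% and 10.3% were lower in these 3 settings.

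Inflammation and interferon genes were mostly too weak to test (10 of 25 in the data), with a median of −0.15 that became 0.056 after TMM rescaling. CFLAR, an inhibitor of death receptor signalling, was the only list member lower, at 7.82, 11.0, 7.99 and 5.04 TPM against 8.93 to 20.9 TPM (log2 fold change −0.80, SE 0.21, limma adjusted p = 0.129). The log2 fold change of CFLAR was −0.46 in HD animals against the same controls. None of the 11 ethanol and acetate metabolism genes tested had an unadjusted p under 0.05, and their median of −0.029 became 0.18 after TMM rescaling. Of 20 cholesterol synthesis genes, 3 were lower, HMGCS1 (−0.65) and LSS (−0.36) among them (15.0%, against 26.1% of all genes), with a list median of −0.28. None of these 20 was lower after TMM rescaling, and 10 were without Control 8. Of 11 transcription regulators that the study discusses for HD and VHD animals, and so chose on these samples, POLR2L alone was higher.

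Glial lists did not share a direction. Of 21 oligodendrocyte and myelin genes, 6 were lower, a share close to that of all genes, with a median of −0.44 (−0.46 without Control 8, VHD 3 and VHD 4), and none was lower without VHD 4, while 2 were lower with cohort as a covariate (median −0.19). The lipid enzyme UGT8 measured 17.5, 47.2, 20.8 and 8.82 TPM against 22.2 to 92.6 TPM (log2 fold change −0.98, SE 0.35, limma adjusted p = 0.129), whereas MBP measured 429, 751, 930.2 and 875 TPM against 288 to 1497 TPM (log2 fold change 0.31, SE 0.46). Cohorts differed in this list, with medians of 0.061 in cohort 5 and −0.50 in cohort 7a. Astrocyte genes had a median of −0.052 (0.16 after TMM rescaling) with SOX9 lower (34.5, 42.5, 26.0 and 22.3 TPM against 38.5 to 48.1 TPM), and GFAP measured 2277, 4037, 2795 and 2536 TPM against 687 to 6255 TPM. Microglia and complement genes had the third highest list median, 0.26 over 11 genes tested of 15. Of these, 1 was higher, against 4 after TMM rescaling and 5 with cohort as a covariate (45.5%, against 4.9% of all genes). None was higher without VHD 3, without VHD 4, or without both and Control 8. AIF1, a calcium-binding protein of microglia, measured 44.3, 66.7, 81.3 and 89.7 TPM against 25.6 to 72.8 TPM (log2 fold change 0.60, SE 0.26, limma adjusted p = 0.141), while the microglial receptor CX3CR1 measured 26.4, 39.8, 45.9 and 14.0 TPM (controls 25.9 to 56.8 TPM) and P2RY12 37.2, 85.4, 76.6 and 27.2 TPM (controls 37.6 to 83.5 TPM). VHD 4 thus had the highest AIF1 and the lowest CX3CR1 and P2RY12 of the 24 animals. None of 8 endothelial and mural cell genes and none of 7 interneuron genes tested had an unadjusted p under 0.05.

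Markers of neighbouring tissue varied between animals in both groups. SLC17A7, of cortical excitatory neurons, measured 10.6, 1.14, 1.75 and 19.4 TPM in VHD animals and 0.897 to 348 TPM in controls. VHD 1 and VHD 4 thus lay above Controls 1, 3, 4, 5 and 6, which measured at most 2.68 TPM. NEUROD2, NEUROD6 and TBR1 measured at most 1.81 TPM in VHD animals. The 10 cortical genes summed to 0.0654% to 0.222% of TPM in VHD animals and 0.0389% to 0.252% in controls, and 2 of them passed the filter. TTR, of choroid plexus, measured 2.06, 16.9, 3.9 and 1.11 TPM against 0.495 to 26.9 TPM and did not pass the filter. Of the 9 ependymal and choroid plexus genes only the water channel AQP1 passed it, at 31.9, 22.2, 23.6 and 99.4 TPM against 8.81 to 79.2 TPM, so that VHD 4 lay above every control. The 3 of these genes that were tested, SLC17A7, NRGN and AQP1, had an unadjusted p of at least 0.690 each in the limma fit. The part of tissue makeup, or of the high share of abundant genes in VHD 3, VHD 4 and Control 8, in any difference above was not tested.

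**Figure D5:**
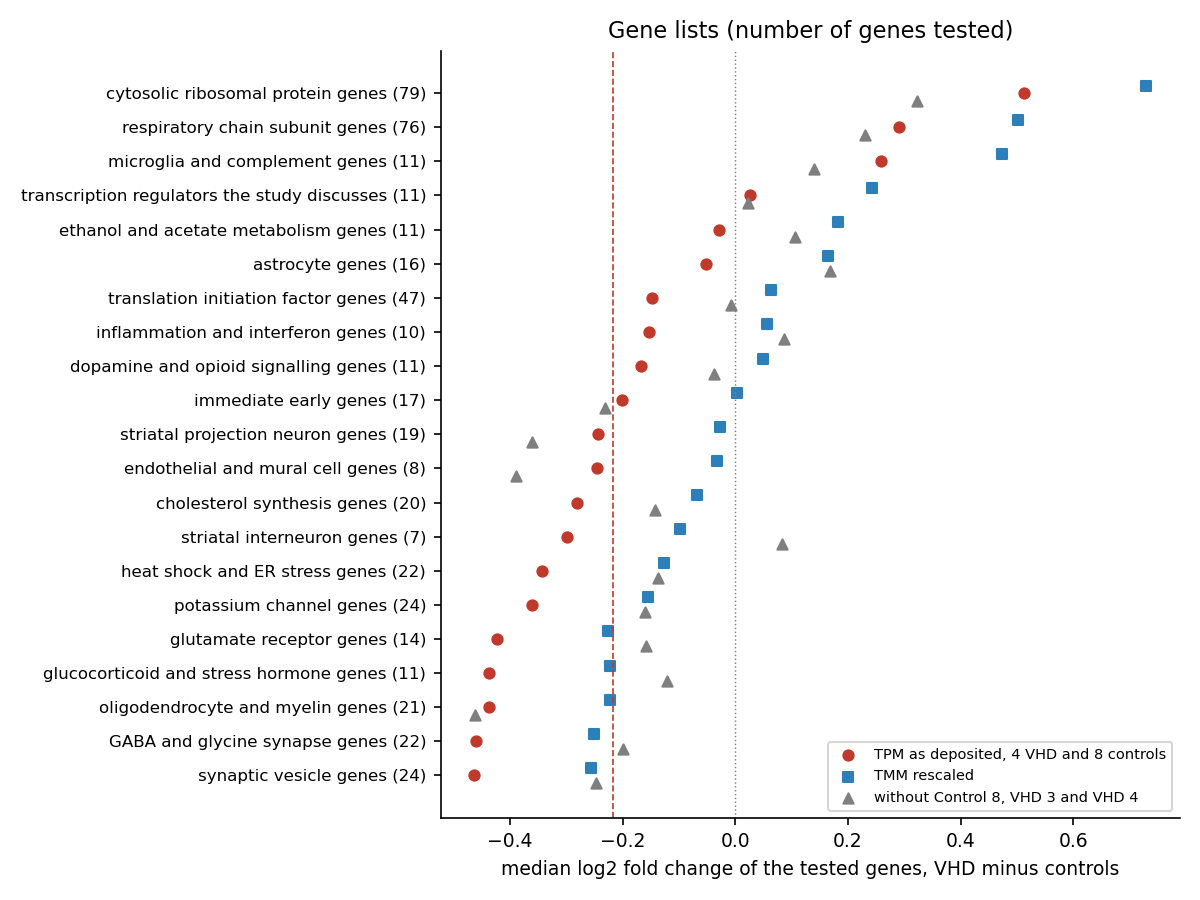
Median log2 fold change of VHD animals against controls for 21 gene lists with at least 7 genes tested (numbers in parentheses), on TPM as deposited, after TMM rescaling and without Control 8, VHD 3 and VHD 4; the dashed line is the median of all 9197 genes (−0.22). Ribosomal protein genes lie highest and synaptic vesicle genes lowest. After TMM rescaling, which shifted nearly all genes alike, 6 lists (ethanol metabolism, astrocyte, initiation factor, inflammation, dopamine and opioid, immediate early) turn from negative to positive.

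HD animals, which drank less on average but came from the same 2 cohorts, were next compared with VHD animals. This comparison shares its VHD animals with that against controls. A difference in it need not be particular to VHD animals, because HD animals could depart from controls in the other direction. VHD and HD animals differed in 1418 genes (15.4%) at an adjusted p under 0.05 (limma, n = 4 each), of which 269 (2.92%) were higher and 1149 (12.5%) lower in VHD animals, and in 3767 genes (41.0%) at an unadjusted p. The smallest adjusted p was 0.0425, so these calls lay close to the threshold. None passed with any 1 HD animal left out, without VHD 3, without VHD 4, or without both, and 3416 passed without VHD 2. After TMM rescaling 704 passed, 384 higher and 320 lower. SAT2 (194 ± 25.5 TPM in HD, log2 fold change 0.81), DUSP7 (50.4 ± 5.60 TPM, −0.80) and FAM110A (25.3 ± 2.75 TPM, −1.31) had the smallest p (mean ± SD, n = 4; adjusted p = 0.0425 each). FAM110A measured 10.6, 9.86, 7.74 and 10.4 TPM in VHD animals, below every HD animal but within the control range of 8.55 to 21.9 TPM.

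Ribosomal protein genes had a median log2 fold change of 0.79 against HD animals, where 69 of 79 passed as higher. In HD animals against controls this median was −0.28, so part of the 0.79 lay in HD animals. The summed share in HD animals was 7.71% to 8.91%, below all 4 VHD animals and in the lower part of the control range. Of 76 respiratory chain genes 20 passed as higher and 4 as lower, against 2.92% and 12.5% of all genes. Of 24 synaptic vesicle genes 9 passed as lower, and of 22 heat shock and ER stress genes 7 did. In HD animals against controls the medians were 0.27 and 0.12 for these lists, and −0.39 for microglia and complement genes. Projection neuron genes had a median of −1.19 against HD animals with none past the adjustment. Against controls the median of these genes was 1.00 in HD and −0.24 in VHD animals. Their summed share was 1.35% to 1.55% in HD animals, above all 4 VHD animals, while controls spanned both. Of microglia and complement genes, 3 passed as higher, AIF1 among them (31.4 ± 5.88 TPM in HD, log2 fold change 1.11, limma adjusted p = 0.0425). INSR (14.2 ± 0.614 TPM in HD, −0.75), GRM5 (68.4 ± 7.83 TPM, −1.28) and KCND2 (26.1 ± 5.28 TPM, −1.16) passed as lower, whereas NR3C1 (−0.53, adjusted p = 0.0545), TMSB10 (0.52, adjusted p = 0.117) and CFLAR (−0.34, adjusted p = 0.299) did not.

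The effect of VHD did not differ between cohorts 5 and 7a for any gene at an adjusted p under 0.05 (0.0% of 9197, limma interaction, 4 VHD animals and 5 controls), and for 262 genes (2.85%) at an unadjusted p. The log2 fold change of the median gene was lower by 0.23 in cohort 7a than in cohort 5, with 33 unadjusted calls higher and 229 lower. This difference was 0.016 after TMM rescaling, with 109 higher and 97 lower, and it was −0.12 without VHD 4, −0.14 without VHD 2 and −0.35 without VHD 3. ANGPTL4, an inhibitor of lipoprotein lipase, had a log2 fold change of 0.89 in cohort 5 and −1.38 in cohort 7a, and NUDT14, a UDP-glucose pyrophosphatase, −0.27 and 1.12. These had the smallest p of the interaction, each with a limma adjusted p of 0.915. In a principal component analysis of the tested genes over all 24 animals, the first component carried 43.9% of the variance. VHD animals scored 26.2 ± 18.3 and controls 1.54 ± 28.1 (mean ± SD), a difference within the spread of the controls (exact permutation test over 495 assignments, two-sided, p = 0.135). HD animals scored −18.3 ± 3.03, below every VHD animal (exact permutation test over 70 assignments, two-sided, p = 0.0286, the smallest possible). The sign of a component is arbitrary.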

How the data were processed

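NAcc core RNA-Seq of 24 animals was analysed here, 4 VHD, 4 HD, 8 LD and 8 control animals, each sequenced as 1 library. Per the labels and the study's methods, the authors made polyA-selected libraries, aligned reads to the MacaM assembly with STAR (2.5.2b), counted genes with HTSeq (0.6.1p1) and used DESeq2 for their tests. What was deposited are TPM values that the authors computed, although their name speaks of normalised counts. Each animal's values summed to between 999998 and 1000000. The gene lengths behind them are not given in the sources used here. Depth is therefore unknown, and neither counting errors nor count tests could be given. Genes keep the symbols of the deposited data, 27 of which a spreadsheet had turned into dates.

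Values were transformed to log2(TPM + 1), and the 9197 genes averaging 10 TPM or more were fitted with limma 3.58.1 (R 4.3.3; trend, empirical Bayes, 20 residual degrees of freedom) as 4 groups without covariates. Benjamini-Hochberg adjustment ran over all 9197 genes, with a threshold of 0.05. The interaction with cohort was fitted to the VHD animals and controls of cohorts 5 and 7a. The first principal component was tested by exact permutation. The animals are separate subjects, so p-values measure the spread between animals. No pair of animals had identical values. The fits were tested on simulated data, in which genes varied independently and 50 were changed in VHD animals at each size. At an adjusted p under 0.05, 14 of 50 were recovered at a log2 change of 0.5 and 39 at 1. At 2 and 4, 49 and 50 were recovered, with 7 false calls among unchanged genes. Most changes of 0.5 were thus missed there. Python 3.11.15, numpy 2.4.6, scipy 1.17.1, pandas 2.3.3 and matplotlib 3.10.9 were used for the rest.

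Named genes are the 12 higher and 12 lower genes with the smallest p, the 2 with the smallest p in each list, the 3 with the smallest p for VHD against HD, the 2 with the smallest p for the interaction, and 8 markers. A few genes that this rule or the lists would name are not reported here. Other list members named were chosen after their values were seen. The comparison, the gene lists and the animals left out together were chosen with earlier results of these data known. Alternatives were a pseudocount of 0.1 or 8, filters at 1 or 100 TPM or none, TMM rescaling (trimming 30% of M and 5% of A), array weights, only the compared groups, cohort as a covariate, cohorts 5 and 7a alone, the 500 most variable genes for the principal component, each compared animal left out in turn and, chosen after seeing the data, Control 8, VHD 3 and VHD 4 left out together. Sequences, coordinates and ages of the animals were not used here.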

Additional observations from a re-analysis of the deposited data

Results flagged for a closer look

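In 202 groups of values that were looked at (named genes and list sums in VHD animals or in controls), 14 held an animal set apart from the rest of its group by Dixon's criterion, which chance alone meets in about 1 of 20 groups. Among VHD animals, VHD 1 had 18.1 TPM of the striatal transcription factor FOXP1 (others 12.9 to 13.5 TPM). VHD 2 had 33.1 TPM of PDIA4 (others 17.6 to 19.6 TPM) and 36.0 TPM of the acetyl-CoA synthetase ACSS2 (others 25.3 to 27.0 TPM). VHD 4 had 99.4 TPM of AQP1 (others 22.2 to 31.9 TPM).

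Control 8 stood apart with 272 TPM of POLR2L (others 112 to 181 TPM), 1833 TPM of RPL11 (others 938 to 1348 TPM), 1015 TPM of NDUFB1 (others 596 to 769 TPM) and 4.74% of TPM in respiratory chain genes (others 3.20% to 3.83%). Control 6 stood apart with 1497 TPM of MBP (others 288 to 769 TPM), 283 TPM of ENPP2 (others 68.7 to 167 TPM), 309 TPM of CALB2 (others 27.9 to 86.6 TPM), 52.6 TPM of PDIA4 (others 24.6 to 37.0 TPM) and 1.35% of TPM in oligodendrocyte and myelin genes (others 0.369% to 0.795%). Control 2 had 348 TPM of SLC17A7 (others 0.897 to 119 TPM).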

How the results depend on the processing

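VHD against controls gave 0 adjusted calls in every setting except array weights (3000), leaving out VHD 2 (2969) and leaving out Control 8 (1809), so that leaving out single animals gave 0 to 2969. Unadjusted calls, 2739 as reported, numbered 4255 with array weights, 1702 with only the compared groups, 537 of the 1925 genes above 100 TPM, 251 without Control 8, VHD 3 and VHD 4, and 677 (without VHD 4) to 4253 (without VHD 2) with single animals left out. VHD against HD, with 1418 adjusted calls as reported, gave 3752 with array weights, 2325 with cohort as a covariate, 2186 with only the compared groups, 704 after TMM rescaling, 587 above 100 TPM, and 0 with the filter at 1 TPM, with no filter or without VHD 3 and VHD 4. Leaving out single animals gave 0 to 3416. Its unadjusted calls, 3767 as reported, numbered 1084 without VHD 3 and VHD 4 and 916 above 100 TPM, where fewer genes were tested. The cohort interaction had 0 adjusted calls throughout and 67 (without VHD 2) to 796 (without VHD 1) unadjusted calls. The difference in the first component, 24.7 as reported, was 3.66 with the 500 most variable genes (exact permutation p = 0.745), 15.3 after TMM rescaling, 19.9 with a pseudocount of 8 and 33.7 in cohorts 5 and 7a. With single animals left out it ran from 15.5 (without VHD 4) to 32.0 (without Control 6, exact permutation p = 0.0455).

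Of the named genes, those that changed direction had small differences as reported. After TMM rescaling they were NRGN (0.11), PPP1R1B (0.17), DRD1 (0.011) and DRD2 (0.12). AQP1 turned to −0.52 with array weights, −0.26 with cohort as a covariate, −0.27 without Control 8, VHD 3 and VHD 4 and −0.31 in cohorts 5 and 7a, and ANGPTL4 turned to 0.20 without Control 8, VHD 3 and VHD 4. With single animals left out, differences ran from −1.27 to 0.045 for SLC17A7, −0.43 to 0.17 for NRGN, −0.45 to 0.25 for AQP1, −0.41 to 0.20 for PPP1R1B, −0.70 to 0.0024 for DRD1 and −0.37 to 0.21 for DRD2. The causes were not tested. No paired analysis was possible because replicate numbers were given in order of listing and pair no animals. With 4 VHD animals in 2 cohorts, and unknown depth, weakly expressed genes are the least certain.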

Other observations

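Besides the respiratory chain genes described above, a few genes lay wholly outside the control range in all 4 VHD animals. They were noticed after their values were seen, among 10 genes above and 10 below all controls of 9197 tested (0.109% each). None passed the adjustment (limma adjusted p 0.129 to 0.169). With group labels assigned at random, all 4 would lie above all controls in 1 of 495 assignments, a larger share than was found. SLC29A1, the equilibrative nucleoside transporter that takes up adenosine, measured 31.2, 30.1, 26.6 and 22.9 TPM in VHD 1 to VHD 4 against 32.2 to 51.9 TPM in controls (log2 fold change −0.52, SE 0.17). HD animals had 47.6 ± 4.85 TPM (mean ± SD, n = 4). SPTAN1, the alpha-spectrin of the neuronal membrane skeleton, measured 264, 267, 181 and 186 TPM against 277 to 363 TPM (log2 fold change −0.50, SE 0.14). NXPH4, a neurexophilin that binds neurexins, measured 3.59, 3.99, 3.46 and 3.21 TPM against 4.87 to 23.6 TPM (log2 fold change −1.24, SE 0.53), so that the 4 VHD animals were close together and the controls spread widely.

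CREG1, a secreted glycoprotein, measured 70.7, 81.7, 85.3 and 49.8 TPM against 94.1 to 114 TPM (log2 fold change −0.53, SE 0.15), and the adaptor protein NCK2 measured 33.3, 36.6, 29.2 and 33.1 TPM against 39.4 to 47.8 TPM (log2 fold change −0.40, SE 0.11). Among the higher genes, THTPA, a thiamine triphosphatase, measured 178, 166, 169 and 162 TPM against 121 to 156 TPM (log2 fold change 0.25, SE 0.079), and NDUFAF2, an assembly factor of complex I, measured 83.2, 79.0, 84.5 and 88.5 TPM against 56.2 to 78.5 TPM (log2 fold change 0.34, SE 0.10). Of all 20 genes, 19 kept their direction after TMM rescaling, which for the 10 higher genes could not change because rescaling raised differences. Without Control 8, VHD 3 and VHD 4 the direction could not change, because every VHD value lay beyond every control. STK11IP turned from −0.17 to 0.037 after TMM rescaling and CDC42BPB moved from −0.23 to −0.019. The count at an unadjusted p under 0.05 was 9 of the 10 higher and 10 of the 10 lower genes, and after TMM rescaling 10 and 4. All 20 were picked for lying outside the control range, so these counts describe the choice.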
